A study of Rattus norvegicus with 12 samples.

Results

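Schwann cells are the glia of peripheral nerve, and 33 genes tied to them were followed in the rat urinary bladder after its nerve supply had been destroyed. The members come from a list of gene symbols that was drawn up, and split into groups, with earlier results of these data known, and 31 of the 33 have a probe set carrying that symbol alone among the 18166 genes measured. Chl1 and Matn2 have none and were not analysed here, and the list's remaining entry, Col28a1_excluded, is no gene symbol. The 31 were read as 22 genes of resting or myelinating Schwann cells and 9 of the 11 listed genes of injury-activated Schwann cells. The denervated group holds 6 bladders of Sprague Dawley females aged about 3 months, collected 10 days after surgery with freezing of the ganglia on both sides, which the source labels word as freezing of the pelvicus. The sham group holds 6 bladders from rats of the same strain, sex and age that had surgery without freezing. Each bladder sample was hybridised to 1 array. The labels do not say whether animals were pooled or what share of the nerve fibres was lost, and nothing in them ties an array to a separate animal, so the p-values measure the spread between these samples.

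Myelinating Schwann cells wrap a single large axon in compact myelin, a membrane built from lipids and a small set of structural proteins, whereas Remak Schwann cells hold bundles of thin axons without myelin. Most fibres that reach the bladder wall are thin and unmyelinated. Both kinds of cell depend on contact with axons. When the axon degenerates in rodent nerve, Schwann cells switch off myelin genes and take on a repair state, with transcription factors such as Jun and Olig1, adhesion molecules such as Ncam1 and L1cam, and secreted factors such as artemin that support regrowing axons.

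Values are log2 expression levels, so a difference of 1 is a 2-fold change. A gene was called, and is said to have risen or fallen, where its adjusted p in a limma fit over all 18166 genes was under 0.05. The arrays carry no detection call, so a dim gene cannot be told from background, and 16 of the 31 members averaged below the median gene. On the first principal component the denervated arrays lay between 25.9 and 42.5 except replicate 2, which stood apart at -5.84, and the sham arrays lay between -30.2 and -22.5. The labels call the tissue over 95 percent smooth muscle. The smooth muscle markers were bright in both groups, but 5 of 8 fell and 1 rose. Mylk fell by 0.99, Synpo2 by 0.99 and Lmod1 by 0.75, and Smtn rose by 0.51. The average level of all 8 markers was 11.19 to 11.79 per denervated bladder and 11.80 to 11.99 per sham bladder. Uroplakin Upk1a, a marker of the bladder lining, averaged 12.1 in denervated and 12.7 in sham bladders, so the samples held urothelial RNA too. Whole tissue was measured, and values are relative to the other genes. Fewer Schwann cells, less RNA per Schwann cell and more RNA from other cells therefore cannot be told apart.

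Among the 22 resting or myelin genes there were 9 falls, 3 rises and 10 genes without a call, with a median log2 change of -0.15 against -0.04 over all genes. Among all 18166 genes 28.7% were called, 16.9% lower and 11.9% higher. The members were further sorted by role, also with earlier results of these data known, so the roles are compared as a description only. Of 8 markers of the cell lineage 5 fell and 0 rose. Of 9 genes for myelin structure 2 fell and 2 rose. Of the 9 injury-activated genes, 3 rose, 2 fell and 4 were not called, with a median of 0.12. The groups did not overlap for 12 members, 8 of them lower and 4 higher in every denervated array, against 7.59% (lower) and 5.76% (higher) of all genes. Without denervated replicate 2, 11 resting or myelin genes fell and 4 rose, while over all genes the falls went up to 3661 and the rises to 2612, against 3063 and 2153 with all arrays. Leaving out any other array gave 7 to 9 falls and 3 rises.

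**Figure D1:**
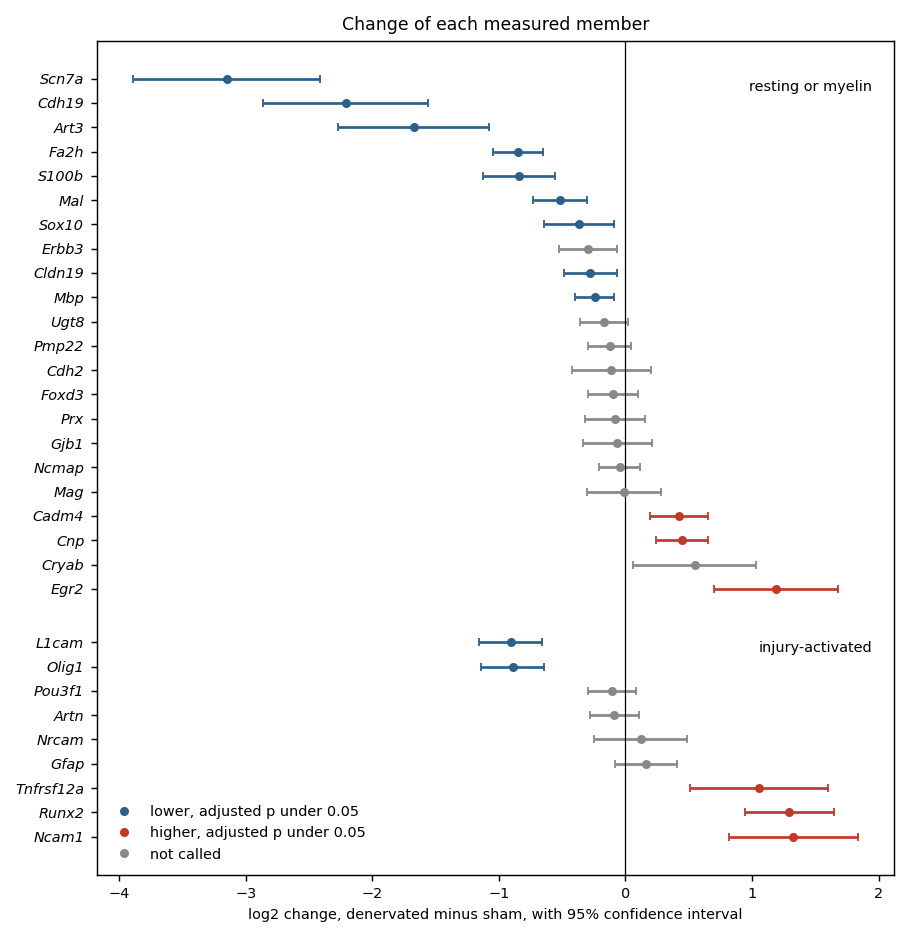
Log2 change of the 31 measured genes, denervated minus sham, with 95% confidence intervals from limma; blue marks genes that fell, red those that rose and grey those not called. Scn7a (-3.15), Cdh19 (-2.21) and Art3 (-1.67) lie far below the other resting or myelin genes, and the injury-activated genes are split between rises (Ncam1, 1.33) and falls (L1cam, -0.91).

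The largest changes among the members were in genes listed for the Schwann cell lineage. Scn7a encodes an atypical sodium channel found in Remak Schwann cells. In denervated bladders its lowest, median and highest values were 5.66, 6.72 and 8.41, against 9.96, 10.01 and 10.31 in sham bladders. The groups were far apart, and the denervated arrays were spread over more than 2 log2 units while the sham arrays lay within 0.4. Scn7a fell by 3.15 ± 0.34 (SE, n = 6 per group), or 8.88-fold (adjusted p = 9.23e-05), and 0.0% of genes had a lower change.

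Cdh19, a cadherin that marks cells of the Schwann lineage, had values of 4.48, 5.07 and 6.92 (lowest, median, highest) in denervated bladders and 7.36, 7.50 and 7.60 in sham bladders. The highest denervated value, in replicate 2, stood close to the sham range and the other 5 lay at or below 5.15. Cdh19 fell by 2.21 ± 0.30 (adjusted p = 0.000294). Art3, a membrane-anchored protein of the ADP-ribosyltransferase family, stood at 7.32, 8.08 and 9.59 in denervated bladders and at 9.72, 9.86 and 10.15 in sham bladders. It showed the same picture, with replicate 2 just below the sham range, and fell by 1.67 ± 0.28 (adjusted p = 0.000823). The part of other cells of the bladder in the falls of Scn7a and Art3 was not tested. 

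S100b, a calcium-binding protein used as a marker of glia, ranged from 6.68 to 7.07 around a median of 6.91 in denervated bladders, against 7.37 to 8.26 around 7.75 in sham bladders. Here the denervated arrays were the tighter group, replicate 2 lay among them at 6.97, and the gene fell by 0.84 ± 0.13 (adjusted p = 0.000602). Fat cells also express S100b in rodents. Of 8 adipocyte genes, 2 fell and 0 rose, and relative to the sham mean their average ran from -1.02 (replicate 2) to 0.24 in denervated bladders and from -0.27 to 0.33 in sham bladders. The part of fat in the fall of S100b was not tested.

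Sox10, the transcription factor that maintains Schwann cell identity, changed much less than Scn7a or Cdh19. Its lowest, median and highest values were 6.05, 6.25 and 6.84 in denervated bladders and 6.50, 6.63 and 6.95 in sham bladders. In 5 denervated arrays it was below every sham array, whereas replicate 2 stood within the sham range. It was called at -0.36 ± 0.13 (adjusted p = 0.0484), a call that was lost when any array but denervated replicate 2 was left out (adjusted p of 0.0508 to 0.106). Without denervated replicate 2 the adjusted p was 0.00182. 

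Erbb3, the neuregulin receptor through which axons keep Schwann cells alive, was not called at -0.29 ± 0.11 (adjusted p = 0.0542). It ranged from 7.29 to 8.01 in denervated bladders and from 7.81 to 8.13 in sham bladders. It was called without denervated replicate 2 (adjusted p = 0.0102) or 6 (0.0372). Foxd3, a factor of the neural crest, stood at -0.10 (adjusted p = 0.482) and N-cadherin (Cdh2) at -0.11 (adjusted p = 0.619). For Cdh2 denervated replicate 6, at 7.34, was the lowest of all 12 arrays, and without it the difference was 0.03. Melanocytes share Sox10 and Cdh19 with Schwann cells. Of 6 melanocyte genes 0 fell and 1 rose (16.7%, against 11.9% of all genes), which was Mitf, by 0.49 (adjusted p = 0.000441). Tyr, Dct, Tyrp1, Mlana and Pmel were dimmer than the median gene and not called. The part of melanocytes in these values was not tested.

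**Figure D2:**
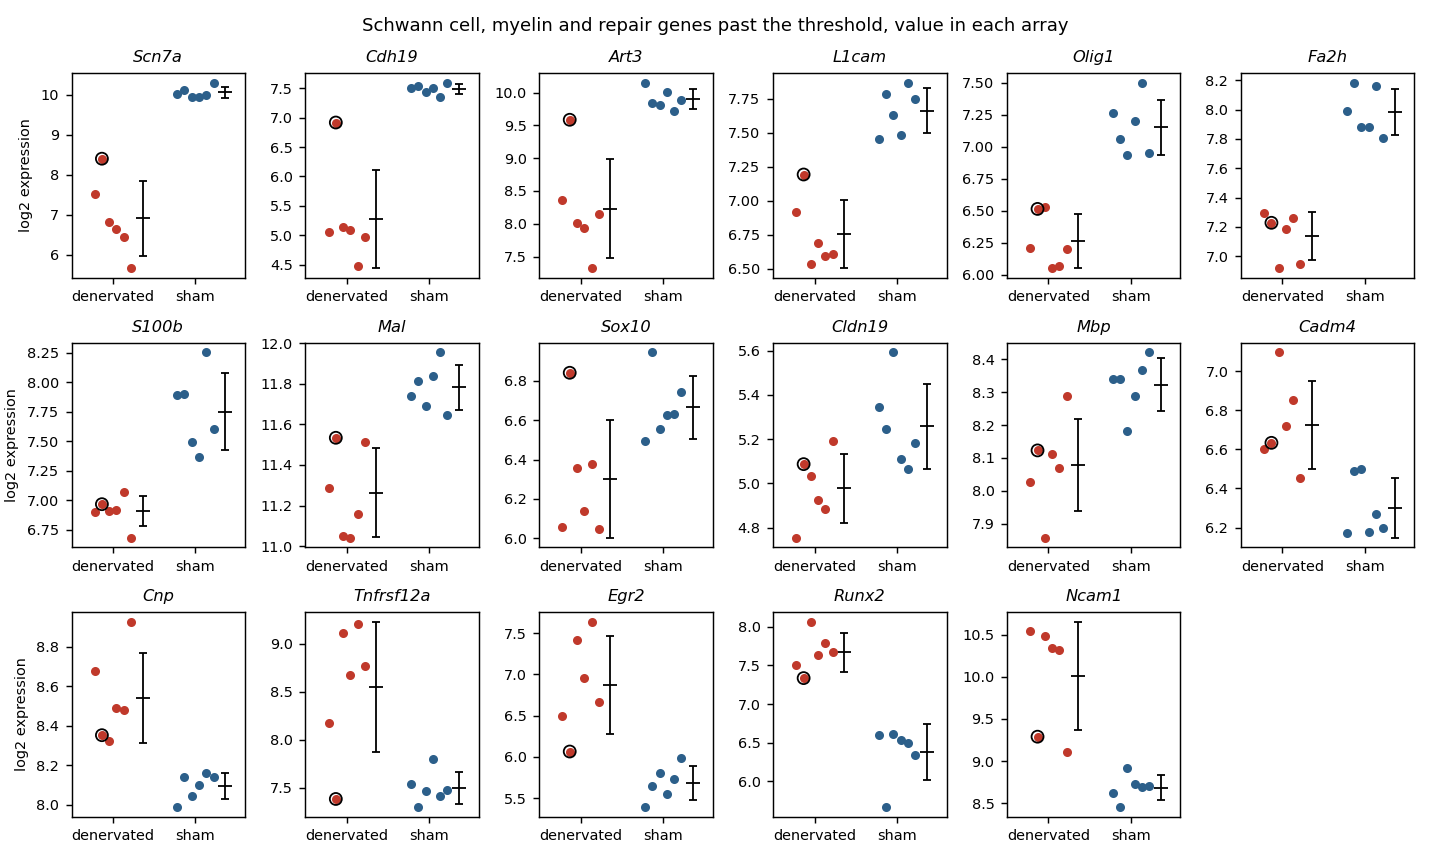
Log2 expression in each array for the 17 called genes, denervated arrays at left in red and sham arrays at right in blue, with mean and SD (n = 6 each) beside the points; black rings mark denervated replicate 2 and each panel has its own scale. The ringed point is the nearest to sham for Scn7a, Cdh19, Art3 and Sox10 but lies among the other denervated arrays for S100b and Fa2h.

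Promoter sequences are shown for the pair of genes that fell most, Scn7a and Cdh19, and for Cadm4, a riser whose promoter holds the core that EGR factors such as Egr2 bind. They are the 250 bases before the annotated start, 5′ to 3′ on the strand of the gene, from RefSeq on build GRCr8. Scn7a lies at chr3:71846285-71846534 (minus strand), Cdh19 at chr13:28533754-28534003 (minus strand) and Cadm4 at chr1:89202839-89203088 (plus strand). Capitals mark matches to GTGGGCG on either strand.
Scn7a: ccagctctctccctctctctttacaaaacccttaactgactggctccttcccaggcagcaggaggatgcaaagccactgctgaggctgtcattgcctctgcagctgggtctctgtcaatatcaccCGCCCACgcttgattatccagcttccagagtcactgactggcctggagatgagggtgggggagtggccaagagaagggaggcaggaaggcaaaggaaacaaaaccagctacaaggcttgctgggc
Cdh19: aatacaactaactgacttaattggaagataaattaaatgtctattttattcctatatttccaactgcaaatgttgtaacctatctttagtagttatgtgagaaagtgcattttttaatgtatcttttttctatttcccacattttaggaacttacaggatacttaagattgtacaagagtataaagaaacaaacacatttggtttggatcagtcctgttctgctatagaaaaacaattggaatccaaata
Cadm4: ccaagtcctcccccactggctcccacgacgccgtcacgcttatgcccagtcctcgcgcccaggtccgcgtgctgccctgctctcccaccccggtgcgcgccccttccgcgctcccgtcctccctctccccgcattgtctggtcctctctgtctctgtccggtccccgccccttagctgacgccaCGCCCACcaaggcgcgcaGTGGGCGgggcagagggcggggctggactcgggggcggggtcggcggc

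Promoters of 300 bases, 250 before the start and 50 after it, were found by symbol for 22 of the 31 genes (24 promoters) and searched on both strands for 4 motifs. The EGR core GTGGGCG was present in 3 of 19 promoters of resting or myelin genes, those of Scn7a (1 match, from base -125), Cldn19 (1 match, from base -140) and Cadm4 (2 matches, from bases -66 and -48), against 7.12% of all 33469 promoters. The SOX core ACAAAG was in 3 of 19, those of Cnp, Mag and Mbp, against 18.8% of all. The TEAD core GGAATG was in 3 of 19, those of Pmp22, Prx and Gjb1, against 14.2%, and the AP-1 site TGANTCA in 1, that of Mal, against 7.33%. None of the 4 was in the 5 promoters of Artn, Gfap, Runx2 and Tnfrsf12a, and no match overlapped another. Genes that fell and genes that rose both appear among those with the EGR core, and a match in letters describes the sequence only.

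Genes for the structure of myelin changed by at most 0.55 on the log2 scale, in both directions. Mbp, which seals the inner faces of the compact membrane, was called at -0.24 ± 0.07 (adjusted p = 0.0209). Its lowest, median and highest values were 7.86, 8.09 and 8.29 in denervated bladders and 8.18, 8.34 and 8.42 in sham bladders, so the groups overlapped through denervated replicate 6. A second and dimmer probe set of Mbp differed by -0.46. Mal, a lipid raft protein of myelin, fell by 0.52 ± 0.10 (adjusted p = 0.00175), with 11.04, 11.22 and 11.53 in denervated bladders, all below the 11.65, 11.78 and 11.96 of sham bladders.

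Mal is also made by epithelia, and the urothelial genes fell alongside. Of 14 measured urothelial genes, 12 fell and 0 rose, and the average level was 9.46 to 9.87 per denervated bladder and 10.22 to 10.49 per sham bladder. The superficial keratin Krt20 fell by 1.80, the transcription factor Grhl3 by 0.88, Upk3b by 0.83 and Upk2 by 0.76, and Krt13 (-0.11) and Elf3 (-0.23) were not called. The part of the urothelium in the fall of Mal was not tested.

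A pair of structural genes rose. Cnp, a phosphodiesterase of the cytoplasmic channels of myelin, had 8.32, 8.48 and 8.93 in denervated bladders and 7.99, 8.12 and 8.16 in sham bladders, with no overlap, and rose by 0.45 ± 0.09 (adjusted p = 0.00346). Cadm4, the Schwann cell adhesion molecule that binds the axon along the internode, had 6.45, 6.68 and 7.10 in denervated bladders and 6.17, 6.23 and 6.50 in sham bladders and rose by 0.42 ± 0.11 (adjusted p = 0.00873). For Cadm4 5 of 6 denervated arrays were above all sham arrays, replicate 6 being the exception. The part of other cells of the bladder in the rises of Cnp and Cadm4 was not tested.

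The other 5 structural genes were not called. Pmp22, a tetraspan protein of compact myelin that other cells also make, was bright and stood at -0.13 (95% interval -0.30 to 0.05). Myelin-associated glycoprotein (Mag), which faces the axon, stood at -0.01 (-0.31 to 0.28), periaxin (Prx), a scaffold of the outer Schwann cell membrane, at -0.08 (-0.32 to 0.15) and Ncmap, a small membrane protein of noncompact myelin, at -0.05 (-0.21 to 0.12). All of these intervals include 0, and those of Mag, Prx and Ncmap belong to genes dimmer than the median gene. Cryab, a small heat shock protein of myelinating Schwann cells and muscle, ranged from 9.00 to 10.56 in denervated bladders and from 9.10 to 9.87 in sham bladders. Its denervated replicate 2 was the lowest of all arrays, 4 denervated arrays were above all sham arrays, and the difference of 0.55 ± 0.23 (adjusted p = 0.0904) was called only without that replicate (0.74, adjusted p = 0.00291) or with array weights (adjusted p = 0.00611).

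Among junction genes Cldn19, a claudin of Schwann cell tight junctions, was called at -0.28 ± 0.10 (adjusted p = 0.0475). The ranges overlapped, with 4.75 to 5.19 in denervated bladders and 5.07 to 5.59 in sham bladders. Leaving out denervated replicate 1, 3, 4 or 5, or sham replicate 1, 2, 3 or 6, ended the call (adjusted p of 0.0617 to 0.101), and so did the replicate number as a block (adjusted p = 0.0652). Gjb1, the connexin of noncompact myelin, was dim in both groups, at 4.40 ± 0.15 in denervated and 4.47 ± 0.30 in sham bladders (SD, n = 6 each), and was not called.

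Of the enzymes that make myelin lipids, Fa2h showed a clear fall and Ugt8 did not. Fa2h, which makes the 2-hydroxy fatty acids of galactolipids, had 6.92, 7.21 and 7.30 in denervated bladders and 7.81, 7.94 and 8.18 in sham bladders. The gap between the groups was wider than the range within either, and the fall was 0.85 ± 0.09, or 1.80-fold (adjusted p = 8.96e-05). Fa2h is also active in epithelia, and the part of the urothelium in its fall was not tested. Ugt8, which adds galactose to ceramide, was dim and stood at -0.17 (adjusted p = 0.178). In 5 denervated arrays it was below every sham array, replicate 2 (5.14) was the exception, and without that array it was called (adjusted p = 0.0219).

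Egr2, the transcription factor that drives the myelin program, rose. It stood at 6.07, 6.81 and 7.64 in denervated bladders and at 5.39, 5.69 and 5.99 in sham bladders. All denervated arrays were above all sham arrays, replicate 2 by the least and replicate 5 by the most, and the rise was 1.19 ± 0.23, or 2.28-fold (adjusted p = 0.00186). Egr2 is also an immediate early gene of macrophages and lymphocytes. Of 12 macrophage genes, 11 rose and 0 fell, and their average level was 9.45 to 10.18 per denervated bladder and 8.51 to 8.71 per sham bladder. Cd68 rose by 2.20, lysozyme Lyz2 by 2.11, the oxidase subunit Cybb by 1.78 and the integrin Itgam by 1.71. Of 10 genes of T and NK cells 8 rose and 0 fell. The part of these cells in the rise of Egr2 was not tested.

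**Figure D3:**
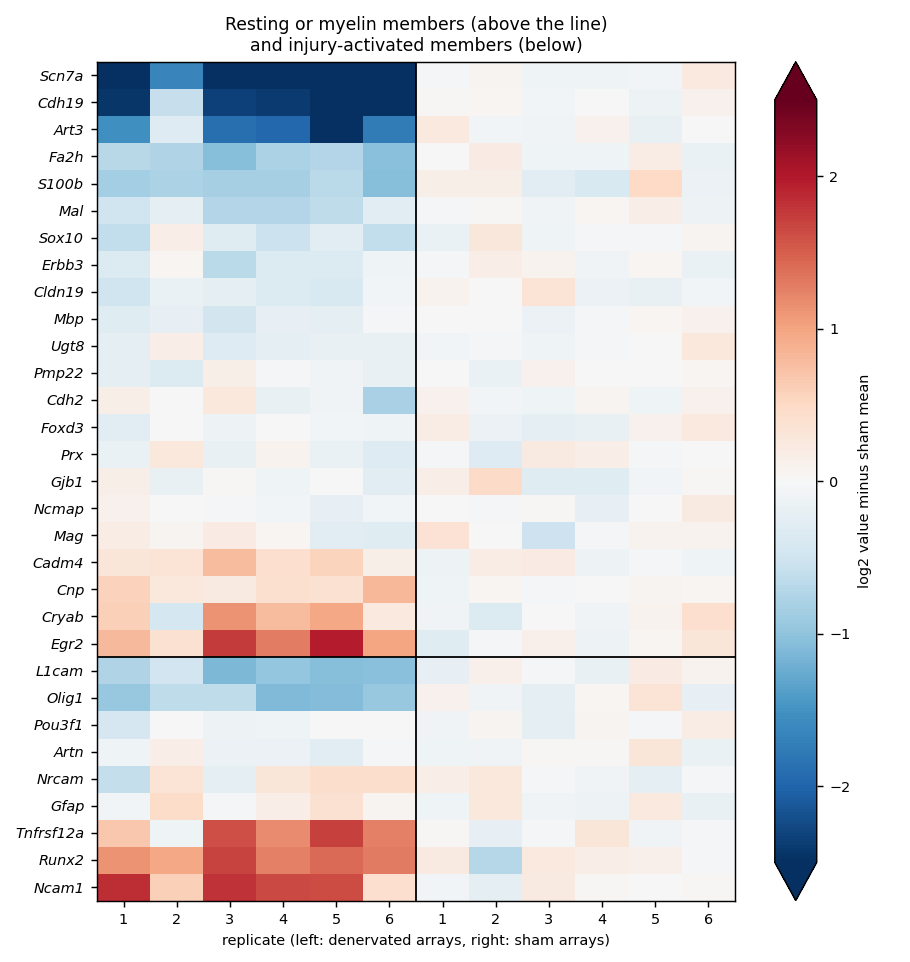
Log2 value minus the sham mean for the 31 genes (rows) in each array (columns, denervated replicates 1 to 6 at left and sham replicates 1 to 6 at right); blue is lower and red higher, and the colour scale ends at 2.5 either way. Denervated replicate 2 is paler than the other denervated arrays for Scn7a, Cdh19 and Art3 and on the opposite side from its group for Sox10, Cryab and Tnfrsf12a.

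Injury-activated genes did not move together. Among the transcription factors, Runx2, better known from bone and switched on in injured Schwann cells, stood at 7.34, 7.65 and 8.07 in denervated bladders and at 5.66, 6.52 and 6.62 in sham bladders. Every denervated array was above every sham array, and sham replicate 2 was low for its group. Runx2 rose by 1.29 ± 0.16, or 2.45-fold (adjusted p = 0.000184). Olig1, which repair Schwann cells switch on in rodent nerve, moved the other way, with 6.05, 6.21 and 6.53 in denervated bladders, all below the 6.94, 7.13 and 7.50 of sham bladders. It fell by 0.89 ± 0.12 (adjusted p = 0.000211). Pou3f1, the factor of promyelinating cells also known as Oct6, was dim and not called (-0.11, adjusted p = 0.417).

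The adhesion molecules also went both ways. Ncam1, the neural cell adhesion molecule, had 9.10, 10.33 and 10.54 in denervated bladders and 8.45, 8.70 and 8.92 in sham bladders. The denervated arrays formed no single cluster, with replicates 2 and 6 at 9.29 and 9.10 and the other 4 between 10.31 and 10.54. Ncam1 rose by 1.33 ± 0.24, or 2.51-fold (adjusted p = 0.00132). L1cam, an adhesion molecule of Remak Schwann cells and unmyelinated axons, fell by 0.91 ± 0.12, or 1.87-fold (adjusted p = 0.000196). Its values were 6.54, 6.65 and 7.19 in denervated bladders and 7.46, 7.69 and 7.87 in sham bladders, without overlap. The part of axons in the fall of L1cam was not tested. Nrcam, which gathers sodium channels at the node, was dim and not called (0.12, adjusted p = 0.657).

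Ncam1 is also re-expressed by skeletal muscle that has lost its nerve. Of 7 measured skeletal muscle genes, 1 rose and 1 fell (14.3% each, against 11.9% higher and 16.9% lower over all genes). The defining genes Myod1, Myog, Myf5, Chrng and Chrna1 were all dimmer than the median gene and not called, while the actin Acta1 rose by 1.56 and the creatine kinase Ckm fell by 1.07. The average over these genes was 6.04 to 6.29 per denervated bladder and 6.00 to 6.14 per sham bladder, and the part of muscle in the rise of Ncam1 was not tested.

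Tnfrsf12a, the receptor of the cytokine TWEAK, rose by 1.06 ± 0.25 (adjusted p = 0.00707), with 7.38, 8.72 and 9.20 in denervated bladders and 7.29, 7.47 and 7.80 in sham bladders. In 5 denervated arrays it was above all sham arrays, and replicate 2 lay inside the sham range. Fibroblasts and muscle express this receptor as well as Schwann cells, and Runx2 too is made by cells of connective tissue. Of 10 fibroblast genes 6 rose and 0 fell, led by Fap (1.58), Thy1 (1.22), Postn (1.14) and Col1a1 (0.60), and their mean lay 0.05 above the sham mean in denervated replicate 2 and 0.26 to 0.98 above it in the other 5 denervated arrays. Their part in the rises of Tnfrsf12a and Runx2 was not tested.

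Artn, the secreted ligand artemin, was not called (-0.09, adjusted p = 0.516), with 6.34 to 6.77 in denervated and 6.43 to 6.91 in sham bladders. Gfap, the filament protein of Remak and repair Schwann cells, was not called either (0.16, 95% interval -0.08 to 0.41) and was dim, at 5.36 ± 0.22 in denervated and 5.20 ± 0.20 in sham bladders (SD, n = 6 each).

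Further genes of both kinds were read from longer lists. Of 13 measured genes from a second list of 16 resting or myelin genes, 9 fell and 0 rose, with a median of -0.54. Cmtm5, a myelin membrane protein, fell by 1.06 ± 0.21, Lgi4, a secreted factor that myelinating Schwann cells need, by 0.89 ± 0.11, Cadm3, an adhesion molecule of axons, by 0.86 ± 0.12 and Gfra3, the artemin receptor subunit, by 0.71 ± 0.14. The desert hedgehog gene Dhh (-0.03), the node protein Gldn (-0.12), Fabp7 (-0.05) and Nfasc (0.05) were not called. Relative to sham, the average of these 13 genes lay between -0.63 and -0.47 in 5 denervated bladders and at -0.16 in replicate 2, while sham bladders spanned -0.10 to 0.09.

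Of 16 measured genes from a second list of 17 injury-activated genes, 5 rose, 2 fell and 9 were not called. These are 31.25% higher and 12.5% lower, against 11.9% and 16.9% of all genes. The chemokine Ccl2, which draws in monocytes and is made by many cells, rose by 1.91 ± 0.42 and the growth factor betacellulin (Btc) by 0.64 ± 0.09. Sonic hedgehog (Shh), which repair Schwann cells switch on but which is also made by urothelium, fell by 0.62, and the myelination inhibitor Id2 by 0.61. Jun, the chief regulator of the repair state, stood at 0.18 (adjusted p = 0.475), the neurotrophin receptor Ngfr at -0.13 (0.553), Gap43 at 0.21 (0.271), Gdnf at 0.13 (0.285) and Sox2 at -0.01 (0.982), none of them called.

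In the neuregulin pathway, the signal from axon to Schwann cell that Erbb3 receives, 2 of 8 measured genes fell and 1 rose. Over all genes 16.9% were lower and 11.9% higher, and 8 genes are too few to tell this list from that background. Nrg4 fell by 0.76, the protease Bace1 by 0.48, and the protease Adam17 rose by 0.35. The Schwann cell ligand Nrg1 (-0.19, adjusted p = 0.425) and the coreceptor Erbb2 (-0.30, adjusted p = 0.0529) were not called.

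Of 22 measured neuron and axon genes 4 fell (18.2%, against 16.9% of all genes) and 1 rose (4.55%, against 11.9%), and 17 of the 22 were dimmer than the median gene. Neurofilament light chain (Nefl) fell by 2.23 ± 0.35, the membrane glycoprotein Gpm6a by 1.85 ± 0.20 and the tubulin regulator Stmn2 of growing axons by 1.21 ± 0.12, and the tubulin Tubb3 rose by 1.34 ± 0.32. Relative to sham, their average was -0.38 to -0.15 per denervated bladder and -0.07 to 0.07 per sham bladder.

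**Figure D4:**
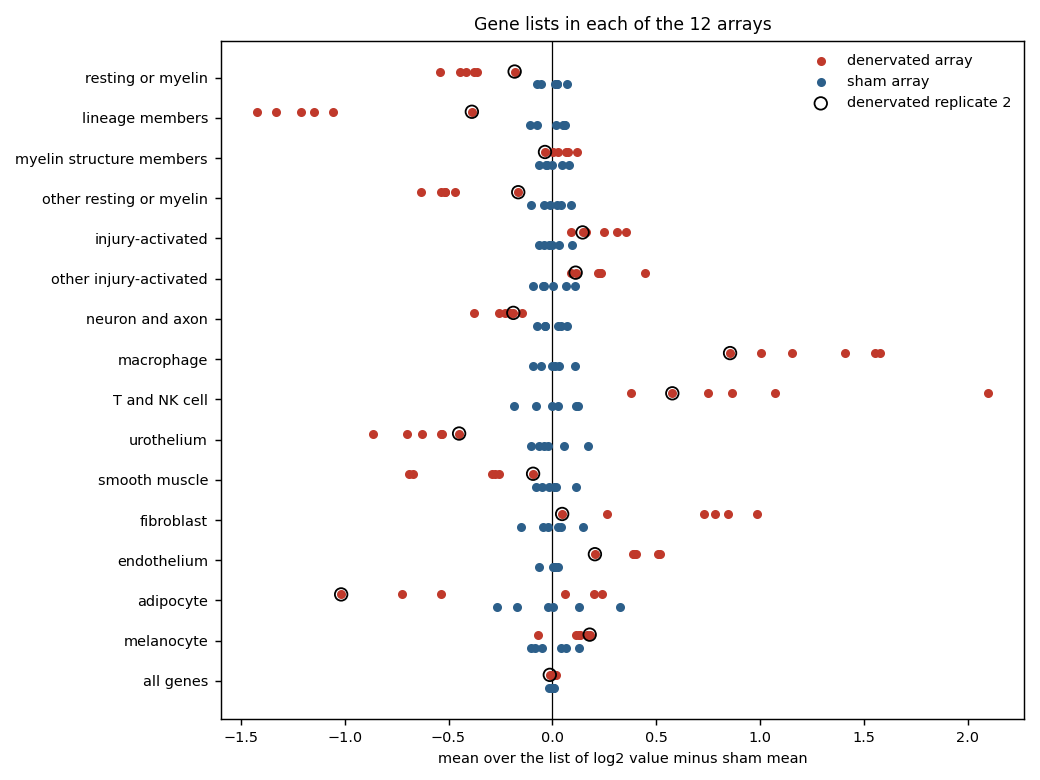
Mean over each gene list of the log2 value minus the sham mean, 1 point per array, denervated arrays in red above sham arrays in blue, with denervated replicate 2 ringed. In the denervated arrays the mean of the lineage genes, drawn down most by Scn7a, Cdh19 and Art3, lies between -1.42 and -0.39. That of the myelin structure genes lies between -0.04 and 0.12 there, and that of the macrophage genes between 0.86 and 1.58.

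The denervated arrays differed from each other in how far the members had moved. For the 8 lineage genes the average relative to sham lay between -1.42 and -1.06 in 5 denervated bladders and at -0.39 in replicate 2. Scn7a, Cdh19 and Art3 weighed most in this average. The median change of the 8 genes was -0.60, and 3 of them were not called. Of the 11 genes that fell, denervated replicate 2 was nearest to sham for 6, and of the 6 that rose for 3. Among all genes called lower it was nearest for 56.9%, and among all called higher for 69.3%. The standard deviation was larger in denervated than in sham arrays for 22 of the 31 genes (71.0%) and for 74.7% of all genes.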

How the data were processed

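The authors deposited log2 expression values for 36685 probe sets on 12 arrays, made with Affymetrix Expression Console 1.4.1.46 and RMA, which corrects background and quantile normalizes, per the submitters' processing notes. The annotation build behind the array is not given in the sources used here. RMA draws the arrays to one distribution, so changes are relative to the other genes. Precision is set by how many arrays there are. Groups and replicate numbers were read from the sample titles.

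Names came from the platform's annotation, in which 18511 probe sets carried 1 symbol; the 575 with several were given no name. The brightest probe set stood for each symbol, which left 18166 genes. All 31 members matched a RefSeq gene (GRCr8) by identifier. Denervated and sham arrays were compared by lmFit and eBayes of limma 3.58.1 under R 4.3.3 (two-sided, no filter, Benjamini-Hochberg adjustment over the 18166 genes, threshold 0.05). The fit was also run on simulated data, in which genes varied independently and both groups had the same spread. It therefore does not check the fit under the unequal spread of these arrays. Changes are denervated minus sham with standard errors.

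The members, their split into groups and roles, and the further lists were chosen with earlier results of these data known. So was the naming rule (every member, and up to 4 called genes of largest change per further list). Uncalled genes of those lists and the urothelial marker that checks the tissue were picked after their values were seen. Of the further lists, endothelial genes (5 of 8 rose, 0 fell) and perineurial genes (3 of 6 fell, 1 rose) are given here only. MicroRNA was not analysed here. Alternatives were a second quantile normalization, median centring, 2 filters on dim genes, trend and robust eBayes, array weights, averaged or all probe sets, a test against a 1.2-fold change, an exact rank-sum test, the replicate number as a block, Nrcam moved to the other group, and each array left out.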

Additional observations from a re-analysis of the deposited data

Results flagged for a closer look

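In 62 sets of 6 values (31 genes in 2 groups), 5 held a highest or lowest array whose gap to the rest passed Dixon's 95% critical value, and chance gives about 1 in 20 such sets. For Cdh19, 5 denervated bladders lay between 4.48 and 5.15 and replicate 2 at 6.92. For Ugt8, denervated replicate 2 was highest at 5.14, the rest of its group reaching 4.79, and sham replicate 6 was highest at 5.25, the rest of its group reaching 4.97. Pou3f1 was lowest in denervated replicate 1, at 5.14, where no other denervated bladder was below 5.43. Runx2 was lowest in sham replicate 2, at 5.66, where no other sham bladder was below 6.34.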

How the results depend on the processing

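Of the 17 called genes, 10 kept their direction and call under every alternative in which they were tested: Scn7a, Cdh19, Art3, S100b, Fa2h, Olig1 and L1cam among the falls and Egr2, Runx2 and Ncam1 among the rises. No member reversed while called. Against a change of at least 1.2-fold, 5 resting or myelin genes fell and 1 rose, and over all genes 496 fell and 756 rose, against 3063 and 2153 in a test of no change. That test ended the calls of Mbp, Mal, Sox10, Cldn19, Cnp, Cadm4 and Tnfrsf12a (adjusted p = 0.0545 for the last), and the exact rank-sum test those of Sox10 (0.116), Cldn19 (0.085) and Tnfrsf12a (0.116). Testing all probe sets ended the calls of Sox10 (0.0871) and Cldn19 (0.0881), which left 7 resting or myelin falls, and trend and robust eBayes ended that of Cldn19 (0.0516). With only genes above the median gene, which leaves out the dimmer members, 7 resting or myelin genes fell and 1 rose, 1 injury-activated gene fell and 3 rose, and over all genes 2813 fell and 1561 rose. Erbb3 gained a call under median centring (adjusted p = 0.0407), both filters on dim genes (0.0331 and 0.0402), trend and robust eBayes (0.0451) and array weights (0.00711), beside the left-out arrays given above. Nrcam was not called, so moving it to the resting or myelin group could not change any count of falls or rises.

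Arrays with the same replicate number did not deviate together, with correlations of deviations from the group means across genes of -0.11 to 0.10. Arrays with different numbers gave -0.25 to 0.18. Such correlations cannot exclude that the numbers pair the arrays. With the replicate number as a replicate block, 8 resting or myelin genes fell and 3 rose, 2 injury-activated genes fell and 3 rose, and 2476 of all genes fell and 1984 rose. No detection call exists, so for dim members such as Mag, Gjb1, Ugt8 and Gfap a missing call does not show that the level was the same.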
